A study of Mus musculus with 40 samples.

Results

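The loci described here are those of 9 imprinted genes that act on growth: Dlk1, Meg3, Igf2, H19, Cdkn1c, Igf2r, Grb10, Peg3 and Mest. A locus was the RefSeq gene body in mm10 with 25000 bp on each side, a cloned fragment belonged to it when its centre lay inside, and overlapping fragments from all libraries were merged into regions. By this rule the 9 loci held 361 different fragments of 354627 in the screen, which formed 54 regions of 75060. Listed library by library they came to 463 of 458486 fragments, or 0.101%.

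The fragments had been screened for enhancer activity in HM-1, a mouse embryonic stem cell line of strain 129/ola whose Hprt gene does not work. Pieces of open chromatin, released by Tn5 transposase, had been placed upstream of an HSP68 minimal promoter and a Venus-YFP gene, and the construct had been recombined into the Hprt locus, which repaired it and allowed selection, so that a cell carried 1 fragment. Every group shared this line, vector and site, and differed by stage and by YFP gate. The 5 stages were undifferentiated embryonic stem cells (ES), hemangioblast-like cells that express FLK1 (HB), hemogenic endothelium 1 (HE1, with KIT and TIE2 but no CD41), hemogenic endothelium 2 (HE2, with KIT, TIE2 and CD41) and hematopoietic progenitors (HP, with KIT and CD41 but no TIE2). At each stage cells were sorted into a Negative, Low, Medium and High gate, so the 2 replicates made 40 libraries, or 2 for each of 20 groups. The 4 libraries of 1 stage in 1 replicate are called a sort. Fragments of its Low, Medium or High library are called positive and those of its Negative library negative, and a fragment was counted once per sort and side. Because the files hold DNA inserts alone, the identity of the sorted cells could not be checked against marker genes, and a fragment's gate reports its action on the minimal promoter at Hprt, not on the gene beside which it lies in the genome. A fragment at Hprt also carries no parental mark of its own locus.

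Imprinted genes are expressed from the allele of 1 parent, and a methylated control region of each cluster sets which. Many of them act on growth before birth in opposite directions, as the paternally expressed growth factor gene Igf2 and the maternally expressed receptor gene Igf2r do. Several work in pairs within a cluster: Dlk1, a transmembrane protein related to Notch ligands, lies beside the maternally expressed non-coding RNA Meg3, and Igf2 shares enhancers with the non-coding RNA H19. Cdkn1c encodes an inhibitor of cyclin-dependent kinases, Grb10 an adaptor that restrains insulin and IGF signalling, Peg3 a zinc finger protein and Mest a protein of the hydrolase family. Dlk1 is also known as a marker of the stroma that accompanies embryonic blood formation.

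The regions that the results turn on are shown first, with the regions of Dlk1, Grb10 and Peg3 chosen for their numbers of fragments and that of H19 for its recurrence at every stage. Each 300 bp window was centred on the median fragment centre of the region with most positive fragments at its locus and was read from the mm10 reference, which is of strain C57BL/6J. Capitals mark matches to any of 11 motifs, each searched on both strands. Blood and endothelial regulators were represented by AGATAA for the GATA factors, by TGTGGT for the RUNX family, by GAGGAAGT for the myeloid factor PU.1 and by CAGCTG for the E-box that basic helix-loop-helix proteins bind. Signalling responses were represented by TGANTCA for AP-1 and by GGAATG for the TEAD partners of the Hippo pathway. The SOX family was represented by ACAANGG and the OCT family by ATGCAAAT. Proteins linked to imprinted loci were represented by TGCCGC for ZFP57, which protects imprints, by GCCATNTT for YY1 and by the motif of the insulator protein CTCF. Matches of different motifs may overlap. The YY1 motif was added after the regions had been seen.
Dlk1 region, chr12:109437679-109437978, plus strand: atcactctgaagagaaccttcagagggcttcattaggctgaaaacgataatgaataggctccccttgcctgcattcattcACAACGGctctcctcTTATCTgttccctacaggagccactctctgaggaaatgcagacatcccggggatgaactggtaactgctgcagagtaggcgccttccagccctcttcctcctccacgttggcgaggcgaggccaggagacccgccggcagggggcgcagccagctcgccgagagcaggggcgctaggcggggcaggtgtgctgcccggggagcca
Grb10 region, chr11:12025781-12026080, plus strand: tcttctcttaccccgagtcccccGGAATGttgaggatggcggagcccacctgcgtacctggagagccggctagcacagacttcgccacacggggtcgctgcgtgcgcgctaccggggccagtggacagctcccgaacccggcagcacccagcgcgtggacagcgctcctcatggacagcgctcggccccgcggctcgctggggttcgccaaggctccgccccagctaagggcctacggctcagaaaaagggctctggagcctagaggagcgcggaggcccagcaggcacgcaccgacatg
Peg3 region, chr7:6728470-6728769, plus strand: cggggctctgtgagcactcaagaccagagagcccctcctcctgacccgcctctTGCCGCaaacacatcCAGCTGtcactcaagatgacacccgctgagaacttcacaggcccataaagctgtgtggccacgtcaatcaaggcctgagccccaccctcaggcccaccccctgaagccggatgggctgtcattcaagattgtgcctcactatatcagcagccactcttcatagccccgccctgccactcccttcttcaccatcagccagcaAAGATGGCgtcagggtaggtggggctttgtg
H19 region, chr7:142566753-142567052, plus strand: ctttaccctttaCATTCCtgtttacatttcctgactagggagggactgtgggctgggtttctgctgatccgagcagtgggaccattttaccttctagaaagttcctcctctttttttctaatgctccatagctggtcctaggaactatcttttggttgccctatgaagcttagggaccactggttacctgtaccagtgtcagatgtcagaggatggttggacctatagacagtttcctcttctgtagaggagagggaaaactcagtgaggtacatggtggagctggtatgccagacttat

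The Dlk1 window lay between genes, held 15 CpG dinucleotides and had a GC content of 60.3%, a value that 5.02% of all 75041 windows reached. The Grb10 window was richer still, with 29 CpG and 68.7% GC, which 0.801% and 0.901% of windows reached. It lay in an intron of Grb10, 2041 bp downstream of the nearest Grb10 start. In the whole Grb10 region of 916 bp there were 116 CpG, or 1.10 times the number that its C and G content gives, and of 3500 regions of like width (0.8 to 1.2 times) 12 held as many. The Peg3 region was an intronic one too, 1800 bp downstream of the Peg3 start, and the H19 region lay between genes 11244 bp downstream of the H19 start, on the side where the enhancers shared by Igf2 and H19 are known.

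The Peg3 region of 724 bp held 4 YY1 matches, all on the minus strand. YY1 is a zinc finger protein, and the first intron of Peg3 is a known cluster of its sites. Among 6285 regions of like width only the Peg3 region itself held as many, which was 0.0159%. Of all 300 bp windows 4.85% held any. YY1 was added after the regions had been seen. Counts in regions of like width were made for Peg3 with YY1, Grb10 with ZFP57 and Dlk1 with GATA alone. The rarity thus describes a chosen motif and was not tested. The Grb10 region held 4 matches of ZFP57, which 13 of 3500 regions of like width (0.371%) equalled or exceeded, counting itself. The ZFP57 motif contains a CpG, and these regions were matched on width but not on CpG content, so this count is not separate from the high CpG number of the region. The matches are shown with 10 bases on each side, read on the strand of the match and with the motif in capitals.
Peg3 YY1 match, chr7:6728392-6728419, minus strand: tggtgcagacGCCATCTTgaatgacagg
Peg3 YY1 match, chr7:6728441-6728468, minus strand: ccaatttggcGCCATCTTtgccagcaat
Peg3 YY1 match, chr7:6728729-6728756, minus strand: ctaccctgacGCCATCTTtgctggctga
Peg3 YY1 match, chr7:6728870-6728897, minus strand: ccatcctggcGCCATCTTtcctggccaa
Grb10 ZFP57 match, chr11:12026070-12026095, minus strand: cagcgcatgtTGCCGCatgtcggtgc
Grb10 ZFP57 match, chr11:12026110-12026135, minus strand: tggcgcgtgtTGCCGCgtgttggccc
Grb10 ZFP57 match, chr11:12026215-12026240, plus strand: gacagggccgTGCCGCtcagagacga
Grb10 ZFP57 match, chr11:12026237-12026262, minus strand: cgtgccggccTGCCGCgatcattcgt

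All 4 Peg3 matches read GCCATCTT. The Dlk1 region of 805 bp held 2 GATA matches, a number that 6.80% of 5223 regions of like width reached, and 1 match each of RUNX, PU.1, SOX and ZFP57. Over all 54 windows GATA matched in 16.7% against 16.5% of all windows, TEAD in 18.5% against 18.7%, RUNX in 29.6% against 23.5% and E-box in 27.8% against 19.9%. PU.1 matched in 5.56% against 3.69% and CTCF in 5.56% against 3.04%. The other shares were SOX at 9.26% against 17.4%, AP-1 at 9.26% against 13.4%, ZFP57 at 3.70% against 4.78%, YY1 at 3.70% against 4.85% and OCT at 0% against 1.59%. These shares are counts of 0 to 16 windows and were not tested. The median GC content was 51.3% in the 54 windows and 49.3% in all. A match is a description of letters and was not tested as a binding site.

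Before the counts, some properties of the libraries have to be stated. Replicate 1 was deeper, with 4869 to 51146 fragments per library against 654 to 31915 in replicate 2, and it gave 374 (84.0%) of the 445 fragments counted at the loci against 79.5% in the whole series. The replicates hardly shared inserts: 1 of the 301 different fragments of replicate 1 and the 61 of replicate 2 was the same, a Peg3 fragment of 355 bp. Libraries of 1 replicate shared on average 12.5% of the smaller library's fragments and those of different replicates 0.597%. The Negative and Medium libraries of HE1 replicate 1 shared 28868 fragments, 69.8% of the smaller, where the median over 60 pairs of gates within a sort was 6.88%. At the loci they shared 29 of the 39 fragments of the Negative library, 17 of them at Peg3 and 7 at Igf2r, so results are given also without that sort. In HP replicate 1 the 6 pairs of gates shared 0 fragments, unlike any other sort, so no insert there could be counted on both sides. Pairs of gates within a sort of replicate 2 shared 4.36 to 47.9% of the smaller library.

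The 445 fragments counted at the 9 loci were 337 positive and 108 negative ones. This was 75.7% positive (95% Wilson interval 71.5 to 79.5) against 76.8% over the whole series. The interval covers counting error in the pooled fragments and not the spread between sorts. The totals of each sort gave 342.5 expected positive fragments for the 337 counted. Of the 54 regions, 44 (81.5%) held at least 1 positive fragment, as did 84% of all regions in the screen. The other 10 held negative fragments alone. There were 31 regions that rested on 1 different fragment, 57.4% against 60.6% of all regions. In the genome 25 regions lay in introns, 1 in an exon of Igf2r and 28 between genes.

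**Figure D1:**
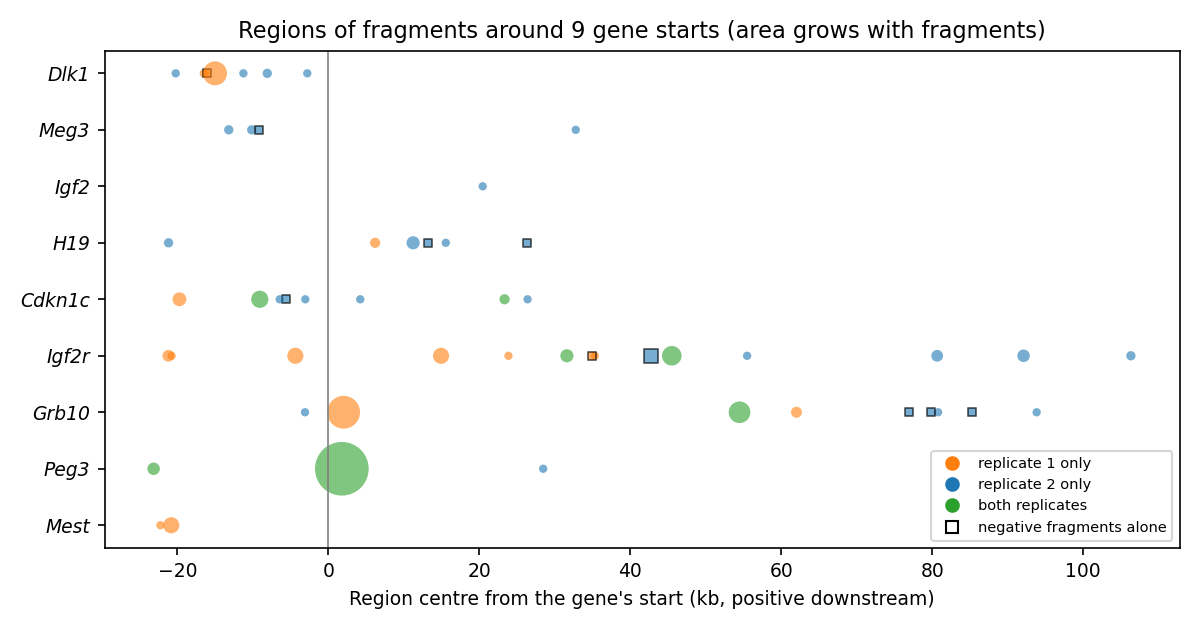
Regions of fragments at each of the 9 loci, by distance of the region centre from the start of the gene in kb (x axis, positive downstream). The area of a point grows with its number of fragments, colour gives the replicates in which it was found, and squares with a black edge hold negative fragments alone. The regions of Peg3 and Grb10 near their starts hold 163 and 59 fragments, and most blue points hold 1 or 2.

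Of the 54 regions 7 (12.96%) had a fragment in both replicates, where the background was 9.28% of all regions. A positive fragment at the same stage in both replicates was found in 2 (3.70%), against a background of 5.07%. These were the Peg3 region at chr7:6728299-6729022 and a Grb10 region at chr11:11973310-11973691, deep in the gene, 54479 bp from the start. Such counts moved with depth: among the 5530 regions with at least 20 fragments 55.7% had both replicates and 40.4% a positive fragment at the same stage in both. Of the 4 regions at the loci with that many fragments, the Dlk1 region and the Grb10 region near the start came from replicate 1 alone.

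**Figure D2:**
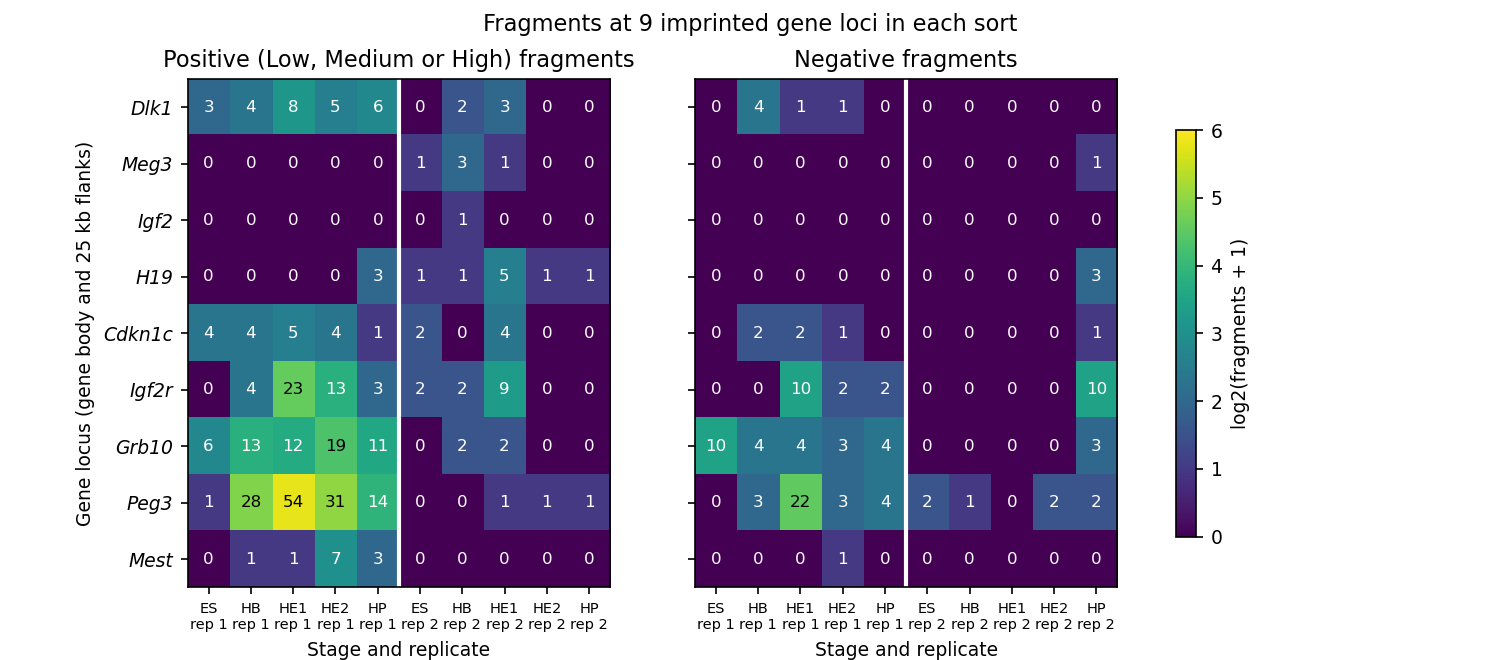
Number of positive (left) and negative (right) fragments at each of the 9 loci (rows) in each sort (columns, stage and replicate), coloured on a log2(fragments + 1) scale with the count printed. Peg3 and Grb10 fill replicate 1, and Meg3, Igf2 and most of H19 were seen in replicate 2.

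Peg3 held by far the most fragments of the 9 loci, 170, of which 131 were positive and 39 negative. At least as many were found at 1.75% of all genes. Nearly all lay in the intronic region shown above, with 125 positive and 38 negative fragments from 124 different inserts. In replicate 1 its positive fragments numbered 0 in ES, 26 in HB, 52 in HE1, 31 in HE2 and 14 in HP. Its negative ones numbered 0, 3, 22, 3 and 4 in the same order. Replicate 2 gave 1 positive fragment in HE2 and 1 in HP, and 2 negative in ES, 1 in HB, 2 in HE2 and 1 in HP. The region was thus cloned as a pile of staggered inserts that appeared on both sides at each stage after ES.

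No positive Peg3 fragment of this region came from ES cells in either replicate, out of 36737 positive ES fragments, which allows a share of up to 0.00817%. Per 10000 positive fragments the region had 0 in ES, 6.67 in HB, 5.10 in HE1, 4.53 in HE2 and 3.53 in HP of replicate 1. In replicate 2 it had 0 in ES, 0 in HB (of 12209 positive fragments), 0 in HE1 (of 34809), 2.88 in HE2 and 1.92 in HP, so that a later stage of that replicate was also without a positive fragment. The comparison of ES with the later stages was noticed in these counts and was not tested. In ES the region gave 2 negative fragments among 2814 in replicate 2 and 0 among 10352 in replicate 1, the replicate that held 155 of its 163 fragments. Of the positive Peg3 fragments at the locus, 19 were identical to a negative one of the same sort. HE1 replicate 1 gave 18 of these, and without it Peg3 had 1, as had H19, Grb10 and Mest.

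**Figure D3:**
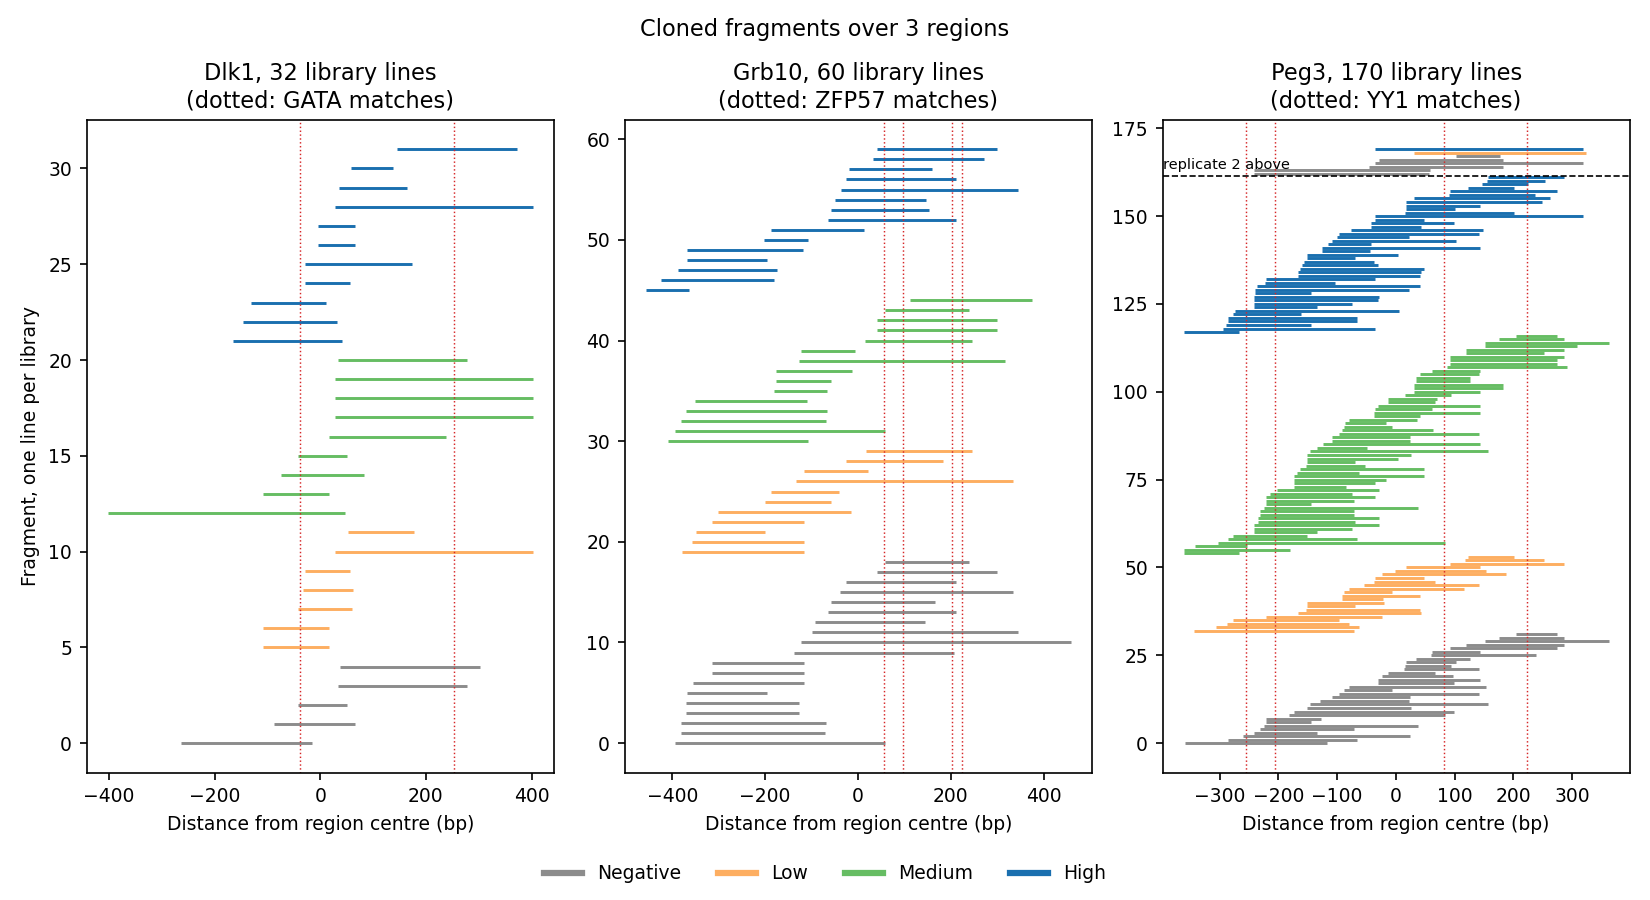
Extent of each fragment at the main regions of Dlk1, Grb10 and Peg3, by distance from the region centre in bp (x axis), with 1 line per fragment and library, sorted by replicate and gate (y axis, rank). Grey lines are Negative, orange Low, green Medium and blue High libraries, and dotted red lines mark GATA, ZFP57 and YY1 matches. Negative and High fragments overlap over most of each region but not at its ends: at Dlk1 the Negative ones run from -263 to 302 bp and the High ones from -166 to 402 bp.

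Grb10 came next with 93 fragments, 65 positive and 28 negative. Its share of positive fragments, 69.9% (59.9 to 78.3), was the lowest of the 9 loci, beside 70.0% (59.2 to 78.9) at Igf2r. The CpG-rich region near the start held 59 of the Grb10 fragments. In replicate 1 it had 3 positive fragments against 5 negative in ES, 9 against 4 in HB, 10 against 4 in HE1, 14 against 2 in HE2 and 4 against 4 in HP. Replicate 2 gave none. Per 10000 fragments of their side, the negative fragments outnumbered the positive ones in ES, HB, HE2 and HP and were about level in HE1, at 0.967 against 0.981. The region observed 0.845 times the positive fragments that the proportions of its sorts gave, and the whole locus 0.888 times.

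For both values the Cochran-Mantel-Haenszel chi-square test, with the sorts as strata, gave a low p before adjustment, 0.0238 for the region and 0.0420 for the locus, and neither passed after Benjamini-Hochberg adjustment, with an adjusted p of 1 in each case. Without HE1 replicate 1 the region was at 0.803 (adjusted p = 0.472 in the same chi-square test) and the locus at 0.858 (adjusted p = 0.753). Without ES replicate 1, which held 5 of the region's 19 negative fragments, the region was at 0.892 (chi-square p = 0.145) and the locus at 0.959 (p = 0.542). With fragment ends within 5 bp collapsed they were at 0.873 (chi-square p = 0.0728) and 0.922 (p = 0.178), so the low p before adjustment was lost in both cases. The other Grb10 region, at 54479 bp from the start, had 19 positive and 5 negative fragments and stood at 0.997. It was positive at all 5 stages and in 6 sorts.

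Dlk1 had 37 fragments, 31 positive and 6 negative, at 83.8% positive (68.9 to 92.3). Of these, 30 lay in a region 14995 bp upstream of the Dlk1 start, chr12:109437412-109438216, which was positive at all 5 stages of replicate 1 and had no fragment in replicate 2. Its positive fragments numbered 3 in ES, 3 in HB, 8 in HE1, 5 in HE2 and 6 in HP. Per 10000 positive fragments of replicate 1 this was 1.08 in ES, 0.770 in HB, 0.785 in HE1, 0.731 in HE2 and 1.51 in HP. The region had 3 negative fragments in HB, 1 in HE1, 1 in HE2 and none in ES or HP. By library it was seen in Low 7 times, in Medium 9 times and in High 11 times. These counts were not scaled to the sizes of the libraries, which differ, and give no order of the gates.

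An insert of 375 bp at the downstream end of the Dlk1 region, chr12:109437842-109438216, recurred in 5 libraries of 4 stages and all 3 positive gates, and in no Negative library. The region observed 1.05 times the positive fragments expected from its sorts (chi-square p = 0.751, adjusted p = 1 in the test per region), and the locus 1.04 times. Without HE1 replicate 1 these were 0.977 and 0.982, and without HB replicate 1, which held 3 of the region's 5 negative fragments, 1.17 and 1.16. The ratio at Dlk1 thus turned below 1 when a single sort was left out. The other 6 Dlk1 regions had 1 or 2 fragments each, the nearest of them 2775 bp upstream of the start.

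Meg3, the non-coding neighbour of Dlk1, held 6 fragments in 4 regions, all from replicate 2. A fragment of 157 bp that lay 10134 bp upstream of its start was found in 4 libraries of 2 stages. The region with most positive fragments by the rule, 13178 bp upstream, was 1 fragment seen in the Low libraries of HB and HE1. With 5 positive fragments and 1 negative, Meg3 was below the 20 fragments that the test asked for. The 2 regions have no fragment from replicate 1 to compare.

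At Igf2, whose product drives fetal growth, the screen returned 1 fragment, from the High library of HB replicate 2. As many or more were found at 72.3% of genes. H19 held 15 fragments, 12 positive and 3 negative. Its main region, shown above, was in replicate 2 a fragment of 387 bp that recurred in 10 libraries, at all 5 stages and in all 4 gates. Counted per sort and side it gave 6 positive fragments and 1 negative one with a second insert included, and its 11 library lines came from 2 different inserts. A further H19 region of 75 bp held 3 fragments, all from HP High of replicate 1 and the only ones of that replicate at H19. Their median length was 74 bp and the shortest was 73 bp, so they differ by a few bp and need not be separate inserts.

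Igf2r, which encodes the receptor that removes IGF2, had 80 fragments in 14 regions, 56 positive and 24 negative. The antisense non-coding RNA Airn starts inside it, and 5 regions lay in an intron of Airn. The region with most positive fragments, chr17:12723776-12724681, was intronic and had 12 positive and 7 negative fragments. Beside it, at chr17:12726834-12727028, all 7 fragments came from HP Negative of replicate 2. At chr17:12677442-12677759 all 6 came from HE1 Low of replicate 2. Such runs of fragments in 1 library have different ends and were held by no other library. Collapsing ends within 5 bp took the Igf2r locus from 81 library lines to 70. Some of its fragments thus differ by a few bp alone and need not be separate inserts. The locus stood at 0.961 times the expected positive fragments.

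At Cdkn1c 30 fragments were found, 24 positive and 6 negative, and the locus stood at 1.02. Its main region, 9069 bp upstream of the start, held 14 fragments, 10 positive and 4 negative, of which 13 came from replicate 1. It was positive at all 5 stages once both replicates were counted. The start nearest to it was that of Slc22a18, at 3670 bp, not that of Cdkn1c. A further region of the locus, with 8 fragments, lay in an intron of Slc22a18. Mest had 13 fragments, 12 positive and 1 negative, all from replicate 1. Of these, 12 lay in a region 20789 bp upstream of the start that was positive in HE1, HE2 and HP. Its window held GATA, TEAD and YY1 matches, and neither ES nor HB gave a fragment there.

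In the test per gene locus, 13800 genes had at least 20 fragments and 14 (0.101%) were called at an adjusted p under 0.05, 5 of them with more positive fragments than expected. None of the 5 tested loci, Dlk1, Cdkn1c, Igf2r, Grb10 and Peg3, was among them, and their adjusted p was 1 in each case. Without adjustment 469 genes had a p under 0.05, and of the 5 tested loci Grb10 was the one among them. Peg3 stood at 0.999, so its many positive fragments were those that its sorts gave. In the test per region 10 of 5530 regions (0.181%) were called, with 0 in the direction of more positive fragments, and none of the 4 tested regions at the loci was called. Without adjustment 191 regions had a p under 0.05, among them the Grb10 region near the start. The numbers of fragments limit what either test can show.

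**Figure D4:**
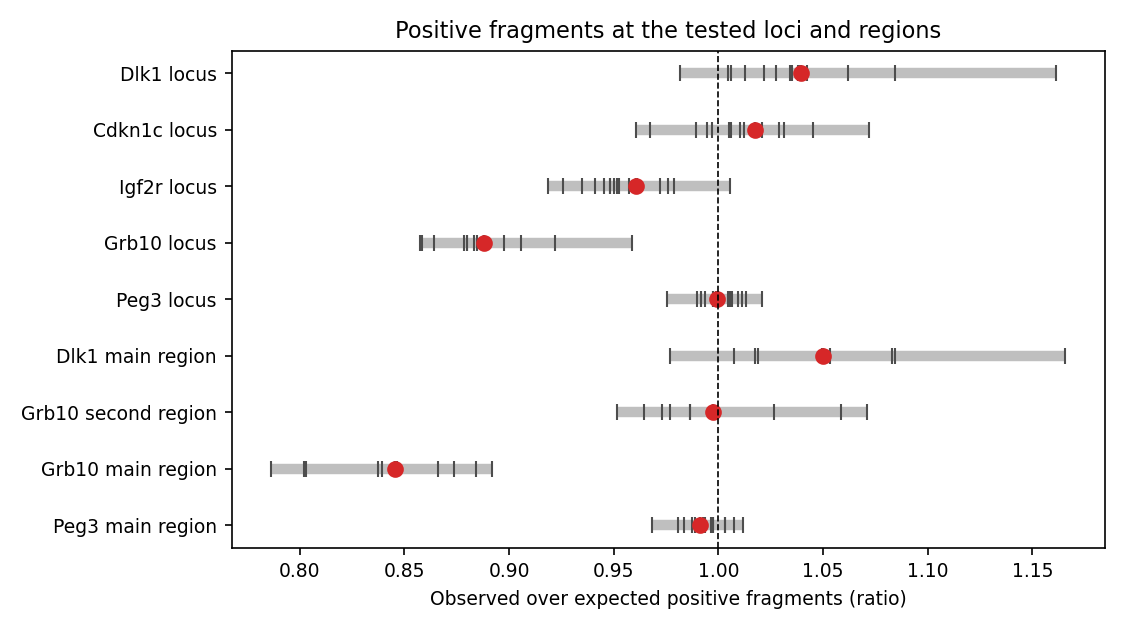
Observed over expected positive fragments (x axis, ratio, dashed line at 1) for the 5 tested loci and 4 tested regions. Red points are the values reported, black ticks the alternatives of processing and of libraries left out, and grey bars their range. Grb10 and its main region stay below 1 under every alternative drawn, with ratios from 0.858 to 0.959 and from 0.786 to 0.892, and the ranges of the others hold 1.

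The 9 loci were then summed as a share of each sort's fragments. Positive fragments at the loci made up 0.0833% ± 0.0317 of all positive fragments (SD, n = 10 sorts) and negative ones 0.0905% ± 0.0478 of all negative fragments. The mean difference was -0.00713 percentage points, and the positive share was the higher in 3 of 10 sorts. An exact two-sided permutation test that exchanged the sides within stages (7776 arrangements) gave p = 0.710. Without HE1 replicate 1 the difference was -0.000629, and without HP replicate 1 it was -0.0152. In HE1 replicate 2 none of 2773 negative fragments lay at a locus, which allows a share of up to 0.108%.

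By stage the mean positive share was 0.0585% ± 0.0113 in ES, 0.114% ± 0.0343 in HB, 0.0864% ± 0.0207 in HE1, 0.0865% ± 0.0409 in HE2 and 0.0709% ± 0.0459 in HP (SD, n = 2 each). HB was highest and ES lowest, and the stages between them overlapped. The range between stage means, 0.0558 percentage points, was not larger than the spread of the sorts allowed (exact permutation test over 945 arrangements, p = 0.480; without HE1 replicate 1, p = 0.623, and without HP replicate 1, p = 0.190). Between YFP gates the shares were 0.0925% ± 0.0578 in Low, 0.0816% ± 0.0545 in Medium and 0.0865% ± 0.0540 in High libraries (SD, n = 10). High minus Low was -0.00592 percentage points (exact permutation test within stages, p = 0.826). Without HE1 replicate 1 it was -0.0166 and without HP replicate 1 -0.0209.

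**Figure D5:**
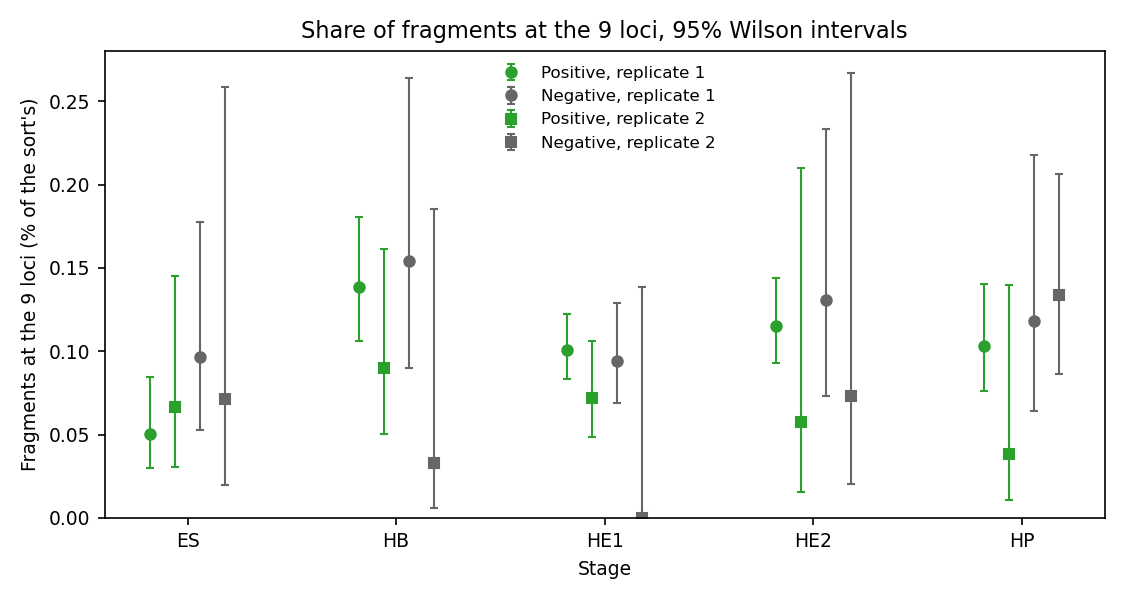
Fragments at the 9 loci as a percent of all fragments of the same side in a sort (y axis) by stage (x axis), with circles for replicate 1, squares for replicate 2, green for positive and grey for negative. Bars are 95% Wilson intervals for counting error alone. Positive and negative intervals overlap in every sort.

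For comparison, 50 other imprinted genes were listed, of which 49 were in the annotation and 40 had a fragment. The test per gene locus covered 21 of them and called 0, and 0 had an unadjusted p under 0.05, where the background was 0.101% called. The median of observed over expected positive fragments was 0.973 over these 21 genes and 1.00 over all genes tested. Of all genes tested 50.8% stood above 1, and of these 21 genes 5 did, which was not tested. The lowest p among those above 1 was at Ddc, the enzyme gene beside Grb10 (1.07, chi-square p = 0.0741), and among those below 1 at Tssc4 (0.864, p = 0.0980). Usp29, a neighbour of Peg3, held 234 fragments and Airn 84, and these include fragments of the Peg3 and Igf2r loci.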

How the data were processed

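Titles gave the stage, gate and replicate of each of the 40 libraries. The values the authors deposited are coordinates in base pairs of unique fragments, 1 list per library, with no read count or molecular identifier, so a library's depth is its number of fragments (654 to 51146) and intervals cover counting error only. Per the labels and methods, inserts were amplified by PCR, trimmed with Trim Galore, aligned to mm10 with Bowtie2 and processed with SAMtools and bedtools, with repeated fragments reduced to 1. Their versions are not given in the sources used here. The deposited lists do not say which further filters of the methods they had passed. PCR and sorting can place an insert in several gates.

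Genes came from the RefSeq annotation of GRCm38, the assembly that mm10 names, and sequences from its genome. Gene loci and regions with at least 20 fragments were compared by the continuity-corrected Cochran-Mantel-Haenszel chi-square test, with sorts as strata, adjusted by Benjamini-Hochberg over all genes or regions, in Python 3.11.15 with SciPy 1.17.1. Expected positive fragments are those that each sort's totals give. The tests were tested on simulated data. Shares were compared by exact permutation tests, two-sided for sides and gates. The test of the range between stages has no sign and is one-sided by construction. In the values reported these tests exchanged shares without regard to replicate, and those with the replicate block are given among the alternatives. The replicate numbers pair the samples, since per the methods cells were transfected once per experiment, and libraries of 1 replicate share 12.5% of fragments against 0.597% between replicates. The permutation p-values measure the spread between these sorts. The chi-square p-values treat the fragments within a sort as independent and do not measure that spread.

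The members, the 50 other imprinted genes and the tests were chosen with earlier results of these data known. Named regions were the one with most positive fragments at each locus, every region with at least 20 fragments and every region positive in both replicates at 1 stage. Further regions were named after their values were seen. Alternatives changed the flank, the collapse of similar ends, the gates, the minimum and the libraries.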

Additional observations from a re-analysis of the deposited data

Results flagged for a closer look

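The difference between the positive and the negative share at the 9 loci ran in opposite directions at some stages, in both replicates of each. In HE1 the positive share was the higher in both sorts, with a mean difference of 0.0393 percentage points. In ES, HE2 and HP it was the lower in both, with means of -0.0253, -0.0154 and -0.0551. HE1 minus HE2 was thus 0.0547, HE1 minus HP 0.0944 and ES minus HE1 -0.0646. These differences between stages were not tested. In replicate 2 the signs rest on few fragments at the loci. ES had 6 of 9020 positive against 2 of 2814 negative ones there, and HE2 had 2 of 3471 against 2 of 2727. HP of that replicate had 2 of 5208 against 20 of 14951. In HE1 replicate 1 the difference was 0.00677, in the sort whose Negative and Medium libraries share 69.8% of the smaller library, and in HE1 replicate 2 it was 0.0718, with 0 negative fragments of 2773 at the loci. The part of this sharing in the result was not tested. There were 10 pairs of stages and 2 sorts a stage.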

How the results depend on the processing

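No member was called: under the alternatives run, 0 of the tested loci and 0 of the tested regions at the 9 loci were called, as in the values reported. Without replicate 1 this says little, since 1 of the loci and 0 of the regions had enough fragments to be tested. Without replicate 2 the main regions of Dlk1 and Grb10 could not change, as they had no fragment in it. The counts over the whole genome moved. For gene loci, 14 calls became 9 with a 10 kb flank, 27 with 50 kb, 0 with fragments within 5 bp collapsed, 5 with Medium and High alone as positive, 4 with a minimum of 50 fragments and 31 without the replicate block, and 4 to 22 with libraries left out. For regions, 10 became 0 with fragments collapsed, 3 with Medium and High alone, 17 with a minimum of 10 fragments and 23 without the replicate block, and 5 to 17 with libraries left out. The cause was not tested.

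The difference between positive and negative shares, -0.00713, was between -0.0170 and 0.00271 with a replicate or sort left out, and turned positive without replicate 1, HB replicate 1 or HP replicate 2. High minus Low ran from -0.0221 to 0.0103 with libraries left out, was -0.0258 with a 50 kb flank, 0.00499 with Medium in place of Low and 0.00479 with fragments on both sides left out. With the replicate block the exact p was 0.641 for sides, 0.267 for stages and 0.828 for gates, and no call changed.

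Ratios near 1 crossed it. With Medium and High alone Cdkn1c was at 0.961, Peg3 at 1.01 and its region at 1.00, and the Grb10 region 54479 bp from the start at 1.03. That region was at 1.07 after collapsing and 1.06 without the replicate block. With fragments on both sides left out Cdkn1c was at 0.989, Peg3 and its region at 1.01. With libraries left out the lowest and highest were 0.967 and 1.07 for Cdkn1c, 0.926 and 1.01 for Igf2r, 0.975 and 1.02 for Peg3, 0.968 and 1.01 for its region, 0.982 and 1.16 for Dlk1, and 0.977 and 1.17 for its region. Few fragments per locus, an absence of read counts and replicates that share almost no inserts limit these values.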
